A study of Mus musculus with 8 samples.

Results

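The aminoacyl-tRNA synthetases, the enzymes that join each amino acid to its tRNA, were followed here as a group of RNAs in mouse oocytes. A list of 36 gene symbols was matched to the deposited expression tables, and the 34 genes listed for all 8 libraries were kept, of 15962 genes listed for all 8. Of the 34 genes, 19 encode enzymes of the cytosol and 15, whose symbols end in 2, encode enzymes of the mitochondrion. *Hars2*, the mitochondrial histidine enzyme, was listed for 0 libraries. *Yars*, the cytosolic tyrosine enzyme, was listed only for the 4 uninjected libraries, at 0.0740 to 0.314 TPM as deposited, and neither gene was analysed further.

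The libraries came from a study of protein phosphorylation in oocyte maturation, and they address whether 3 adjacent phosphorylation sites of BTG4 bear on the decay of maternal mRNA. BTG4 is an adaptor that brings the CCR4-NOT deadenylase to maternal transcripts. There were 4 groups with 2 libraries each and 15 oocytes per library. GV oocytes are immature and arrested in prophase, with an intact nucleus called the germinal vesicle, and MII oocytes have matured to the second meiotic metaphase; both were uninjected and had been cultured in vitro. The Btg4wt and Btg4tm oocytes were MII oocytes that had been microinjected with cRNA for wild-type BTG4 or for BTG4 with the threonine and the serines at those 3 sites changed to alanine. No knockout was involved, so all 4 groups carried the endogenous *Btg4* gene, and no library analysed here came from oocytes injected with a control RNA. The libraries were made with Smart-seq2, which primes reverse transcription on the poly(A) tail with oligo(dT). The study's methods describe oocytes taken from superovulated 6-week-old females of the outbred stock Crl:CD1 (ICR).

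Mammalian cells have one set of synthetase genes for the cytosol and another for mitochondria, all of them nuclear. Glycine and lysine are among the exceptions, since *Gars* and *Kars* each serve both compartments. In the cytosol several of the enzymes, together with scaffold proteins, form the multisynthetase complex. The mitochondrial enzymes charge the tRNAs that read the few messages of the mitochondrial genome. By their active site the enzymes fall into class I and class II. The maturing oocyte is transcriptionally silent, so its enzymes are translated from RNAs stored during growth, and much of that store is deadenylated and removed before fertilization.

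Levels are given as TPM, reads per gene length as a share of the library, after each library was scaled by its median ratio to the others. *Btg4* itself was measured first. Its scaled level was 2650.0 and 2794 TPM in the GV libraries and 5792 and 6002 TPM in the MII libraries. It was 5178 and 5510 TPM in the libraries labelled Btg4wt, and 3725 and 4068 TPM in those labelled Btg4tm. The RNA level thus did not show an excess of *Btg4* over MII oocytes in either injected group, and the groups are named as labelled. At the protein level the paper reports overexpression of both BTG4 forms by immunoblot. It adds that the injected forms seemed to lower the oocyte's own BTG4. The deposited TPM of a library added up to 996199 to 998615, and replicate libraries correlated at 0.982 to 0.987 over the genes tested. Among oocyte markers, 9 of 10 were listed and summed to between 22529 and 29619 TPM in the 8 libraries. Of 15 cumulus and granulosa markers, 11 were not listed for all libraries, *Amh*, *Foxl2* and *Fshr* among them, and the other 4 summed to 34.9 to 35.4 TPM in GV oocytes, to 45.8 to 49.5 TPM in MII oocytes, to 46.5 to 47.5 TPM with Btg4wt and to 35.6 to 40.8 TPM with Btg4tm. Among these 4, *Inha* was called lower in MII than GV oocytes (log2 fold change -1.72) and higher with Btg4tm than Btg4wt (1.74), at 4.37 and 2.11 TPM in GV, 0 and 0.532 TPM in MII, 1.88 and 1.09 TPM in Btg4wt and 9.83 and 5.18 TPM in Btg4tm libraries, while *Cyp19a1*, *Nr5a2* and *Kitl* had log2 fold changes of the opposite sign in both comparisons and were not called. *Cd68*, the only listed gene of 6 blood and immune markers, stood at 3.54 to 5.87 TPM in the first 3 of these groups and at 7.10 and 8.06 TPM in Btg4tm libraries. The part of such cells in the results was not tested.

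The 3′ ends of the RNAs are shown first, because the tail added there is what BTG4 acts on and what the libraries were primed from. In GENCODE M21 on GRCm38 the synthetase genes had short 3′ untranslated regions, with a median of 266 bases over the 34 genes against 892 bases over 12770 genes with a coding transcript. Their coding regions were longer, with a median of 1819.5 against 1404 bases. The last 100 bases of the 30 genes with at least 100 bases of this region were searched on the sense strand. The poly(A) signal AATAAA was found in 20 of 30 (66.7%, against 65.5% of 11778 genes). A cytoplasmic polyadenylation element, TTTTAT or TTTTAAT, was found in 5 of 30 (16.7%, against 19.7%), namely *Aars*, *Farsa*, *Kars*, *Lars* and *Mars2*. The element may overlap the poly(A) signal, as it does in *Farsa*. The stretches of 30 bases below hold the poly(A) signal of 7 RNAs that the results turn on and of *Kars*, the one RNA in which both motifs lie apart within such a stretch. They are written 5′ to 3′ in the sense of the RNA, with T for U, and capitals mark the motifs.
*Dars*: gtcctgaggctgagattcAATAAAaactta
*Farsa*: ctgcaggccagctgTTTTAATAAAgtgggc
*Kars*: TTTTATtcctcgttaccaAATAAAtcattt
*Eprs*: tctgtaaacagccagggtAATAAAaaccat
*Sars2*: gcggagcagaatggccacAATAAAtggtcg
*Vars2*: gccactcgagcctgcagtAATAAAgacgtc
*Yars2*: tactcatgtgcatttcaaAATAAAatgtta
*Lars2*: gttgaaaaccattgaattAATAAAtgttgt
The genes lie on the plus strand at chr8:84856989-84869257 (*Farsa*), chr1:185363044-185428360 (*Eprs*), chr7:28741992-28753871 (*Sars2*), chr16:16302965-16309640 (*Yars2*) and chr9:123366927-123462666 (*Lars2*). On the minus strand are *Dars* at chr1:128363707-128417368, *Kars* at chr8:111993443-112011323 and *Vars2* at chr17:35655634-35667592. Of the 10 RNAs described below as lower in MII oocytes, 7 had a region of 100 bases and 1 of these 7 held the polyadenylation element; of the 3 described as higher, 0 of 3 held it.

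In GV oocytes the cytosolic RNAs were mostly abundant and the mitochondrial RNAs mostly scarce. The GV means of the 19 cytosolic genes ran from 0.779 to 168 TPM with a median of 39.8 TPM, and those of the 15 mitochondrial genes from 0.386 to 49.7 TPM with a median of 4.95 TPM. Of 11 amino acids with a cytosolic and a mitochondrial gene in the list (phenylalanine left aside, since its cytosolic enzyme has 2 subunit genes), the cytosolic RNA had the higher GV mean in 9. The exceptions were leucine and valine.

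*Farsb*, the beta subunit of the cytosolic phenylalanine enzyme, was the highest of the cytosolic RNAs in GV oocytes, at 180.0 and 157 TPM. Next in GV libraries came *Rars*, the arginine enzyme, at 173 and 148 TPM, and *Qars*, the glutamine enzyme, at 124 and 127 TPM. The ranges of *Farsb* and *Rars* overlapped, so their order was not resolved. At the bottom of the cytosolic list stood *Vars*, the valine enzyme, which reached 1.38 TPM at most: 0.340 and 1.22 TPM in GV libraries, 0.295 and 0.140 TPM in MII libraries, 1.38 and 1.19 TPM in Btg4wt libraries and 0.199 and 1.07 TPM in Btg4tm libraries. Among mitochondrial RNAs, *Fars2* (phenylalanine) was at 49.1 and 50.2 TPM, *Rars2* (arginine) at 48.0 and 49.3 TPM, and *Lars2* (leucine) at 38.6 and 58.3 TPM in GV libraries. These 3 did not differ beyond their spread. Of the exonic bases of *Fars2*, 10.7% overlap *Lyrm4* and *Nrn1* on the opposite strand. *Iars2*, the mitochondrial isoleucine enzyme, had the lowest GV mean, with 0.247 and 0.525 TPM in GV libraries, which overlapped the GV values of *Mars2* and *Nars2*, and it lay between 0.231 and 0.954 TPM over all 8 libraries. Of the exonic bases of *Iars2*, 24.2% overlap other genes, *Rab3gap2* on the opposite strand foremost. *Iars2* is 1 of 4 mitochondrial RNAs, with *Aars2*, *Mars2* and *Nars2*, that did not reach 1 TPM in 2 libraries and were not tested. That left 30 synthetase RNAs tested, 19 cytosolic and 11 mitochondrial. Of the 30, *Ears2* reached 1 TPM in 5 libraries, and *Vars* and *Yars2* in 4 each; the other 27 did so in all 8.

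**Figure D1:**
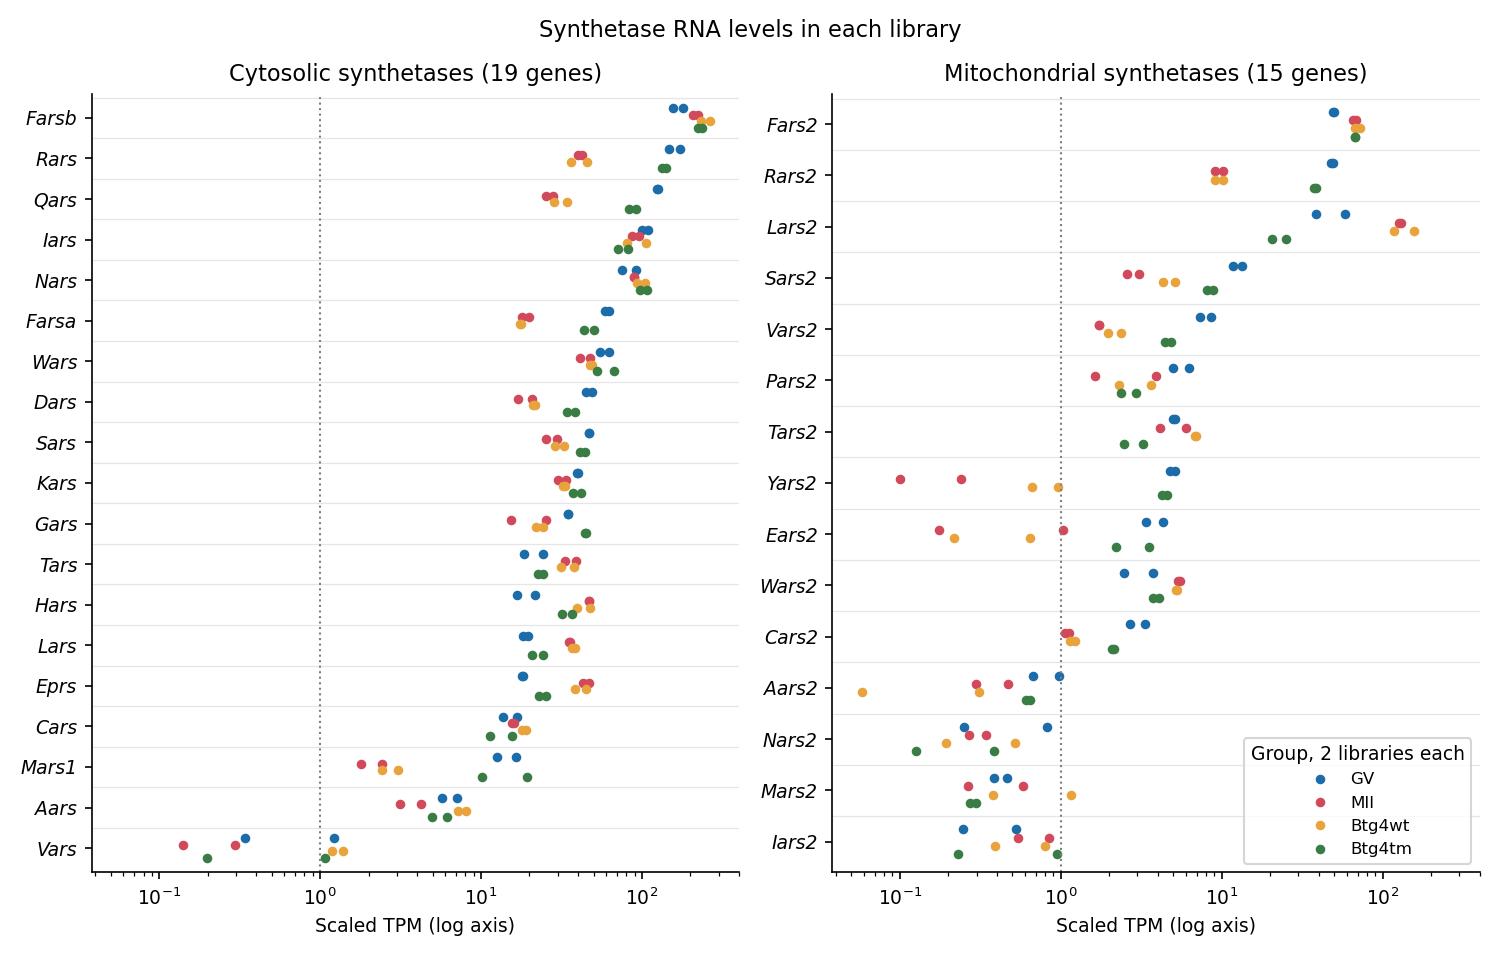
Scaled TPM (log axis) of the 34 synthetase RNAs in each of the 8 libraries, with genes ordered by their mean in GV oocytes, 2 points per group, and a dotted line at 1 TPM. Most cytosolic RNAs lie above 10 TPM, while 4 of the 15 mitochondrial RNAs lie below 1 TPM in nearly every library.

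The comparison of MII with GV oocytes asks which RNAs change in level as the oocyte matures. Of the 30 synthetase RNAs tested, 10 were lower in MII oocytes and 3 were higher by more than 1 on the log2 scale at an adjusted p under 0.05. Over all 13952 genes tested, 24.0% were lower and 12.6% were higher. The synthetase shares were 33.3% and 10%, close to that background, so in this fit the counts alone say nothing particular about these enzymes. The median log2 fold change was -0.58 over the 30 synthetase RNAs and 0.00 over all genes. A further 11 synthetase RNAs passed the adjusted p alone, 6 of them lower and 5 higher. Whatever the fold, 24 of the 30 passed the adjusted p, as did 8741 of the 13952 genes tested. Each library held many oocytes, so RNA lost from all of them and RNA lost from some cannot be told apart, and neither can fewer molecules and shorter tails.

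Of the 19 cytosolic RNAs, 5 were lower (26.3%) and 2 were higher, with a median log2 fold change of -0.40. Of the 11 mitochondrial RNAs tested, 5 were lower (45.5%) and 1 was higher, with a median of -0.94. With all 15 mitochondrial RNAs fitted, the 4 scarce ones included, that median was -0.40, the same as over the cytosolic RNAs.

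The largest cytosolic decline was that of *Mars1*, the methionine enzyme, on the minus strand at chr10:127296221-127311786. It was at 16.5 and 12.5 TPM in GV and at 1.80 and 2.43 TPM in MII libraries, a log2 fold change of -2.31 (SE 0.30, limma adjusted p = 0.000242). The 3′ ends of *Mars1* and *Ddit3* overlap on opposite strands by 1.99% of the exonic bases of *Mars1*, and reads were counted without strand. *Qars* fell from 124 and 127 TPM to 28.0 and 25.3 TPM, a log2 fold change of -2.20 (SE 0.13, limma adjusted p = 3.71e-06). *Rars* was at 173 and 148 TPM in GV and at 42.3 and 40.1 TPM in MII libraries, a log2 fold change of -1.93. For these 3 RNAs every MII library lay far below both GV libraries.

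*Farsa*, the alpha subunit of the cytosolic phenylalanine enzyme, fell from 62.1 and 59.1 TPM to 17.9 and 19.8 TPM, with a log2 fold change of -1.64 (SE 0.13, limma adjusted p = 1.43e-05). *Dars*, the aspartate enzyme, went from 45.0 and 49.1 TPM to 17.0 and 20.8 TPM, a log2 fold change of -1.28. Neither RNA had overlapping values between the groups, which does not set them apart. Only 5 of the 34 synthetase RNAs overlapped between GV and MII libraries. The share of all genes that did so was not counted, so this number is not read as a trait of the synthetases.

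The mitochondrial decline was steepest for *Yars2*, the tyrosine enzyme. It stood at 5.12 and 4.79 TPM in GV and at 0.239 and 0.0998 TPM in MII libraries. The log2 fold change was -2.35 (SE 0.21, limma adjusted p = 2.81e-05) on a scale with 1 TPM added, which understates the change of so low an RNA. *Yars2* reached 1 TPM only in GV and Btg4tm libraries, and *Ears2* only there and in 1 MII library. Both thus entered the test through the groups where they were high. With no filter 10 of 34 synthetase RNAs were lower in MII oocytes and 7 higher with Btg4tm than Btg4wt. With a filter at 5 TPM the counts were 8 and 5 of 26. Over all genes the counts were 3340 and 2517 of 15962 with no filter, and 2782 and 2256 of 9805 at 5 TPM. *Rars2* fell from 48.0 and 49.3 TPM to 9.12 and 10.1 TPM, a log2 fold change of -2.22 (SE 0.13, limma adjusted p = 3.97e-06). *Rars2*, at chr4:34614957-34660167 on the plus strand, had the most abundant RNA of those that declined in this class.

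*Sars2*, the mitochondrial serine enzyme, was at 13.4 and 11.8 TPM in GV and at 2.59 and 3.08 TPM in MII libraries, a log2 fold change of -1.83. *Vars2* (valine) went from 8.59 and 7.31 TPM to 1.73 TPM in both MII libraries, a log2 fold change of -1.71; 8.52% of its exonic bases overlap *Gm20483* on the opposite strand. *Ears2* (glutamate) fell from 4.32 and 3.38 TPM to 0.175 and 1.04 TPM, with a log2 fold change of -1.64 (SE 0.33, limma adjusted p = 0.00259). The MII libraries of *Ears2* differed from each other more, in proportion, than those of the other RNAs named here.

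The RNAs that were higher in MII oocytes were those of *Eprs*, *Hars* and *Lars2*. *Eprs*, whose product carries both the glutamate and the proline enzyme on 1 chain, was at 18.3 and 17.9 TPM in GV and at 46.7 and 43.2 TPM in MII libraries, with a log2 fold change of 1.27 (SE 0.13, limma adjusted p = 6.99e-05). *Hars*, the histidine enzyme, rose from 21.6 and 16.8 TPM to 47.0 and 46.7 TPM, a log2 fold change of 1.26 (SE 0.16, limma adjusted p = 0.000195); 7.97% of its exonic bases overlap those of *Hars2*. *Lars2* rose from 38.6 and 58.3 TPM to 131 and 126 TPM, a log2 fold change of 1.42 (SE 0.21, limma adjusted p = 0.000559); 2 of its 9 annotated transcripts share a run of 52 bases with *Gm15564*. Scaled to the mitochondrially encoded RNAs instead, the median of all genes shifted to -1.69 and these 3 RNAs turned negative, at -0.88, -0.89 and -0.77, which is 0.82, 0.80 and 0.92 above that median. With the trend of fold change on exonic length removed, *Eprs* (0.64) and *Lars2* (0.98) no longer passed 1.

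**Figure D2:**
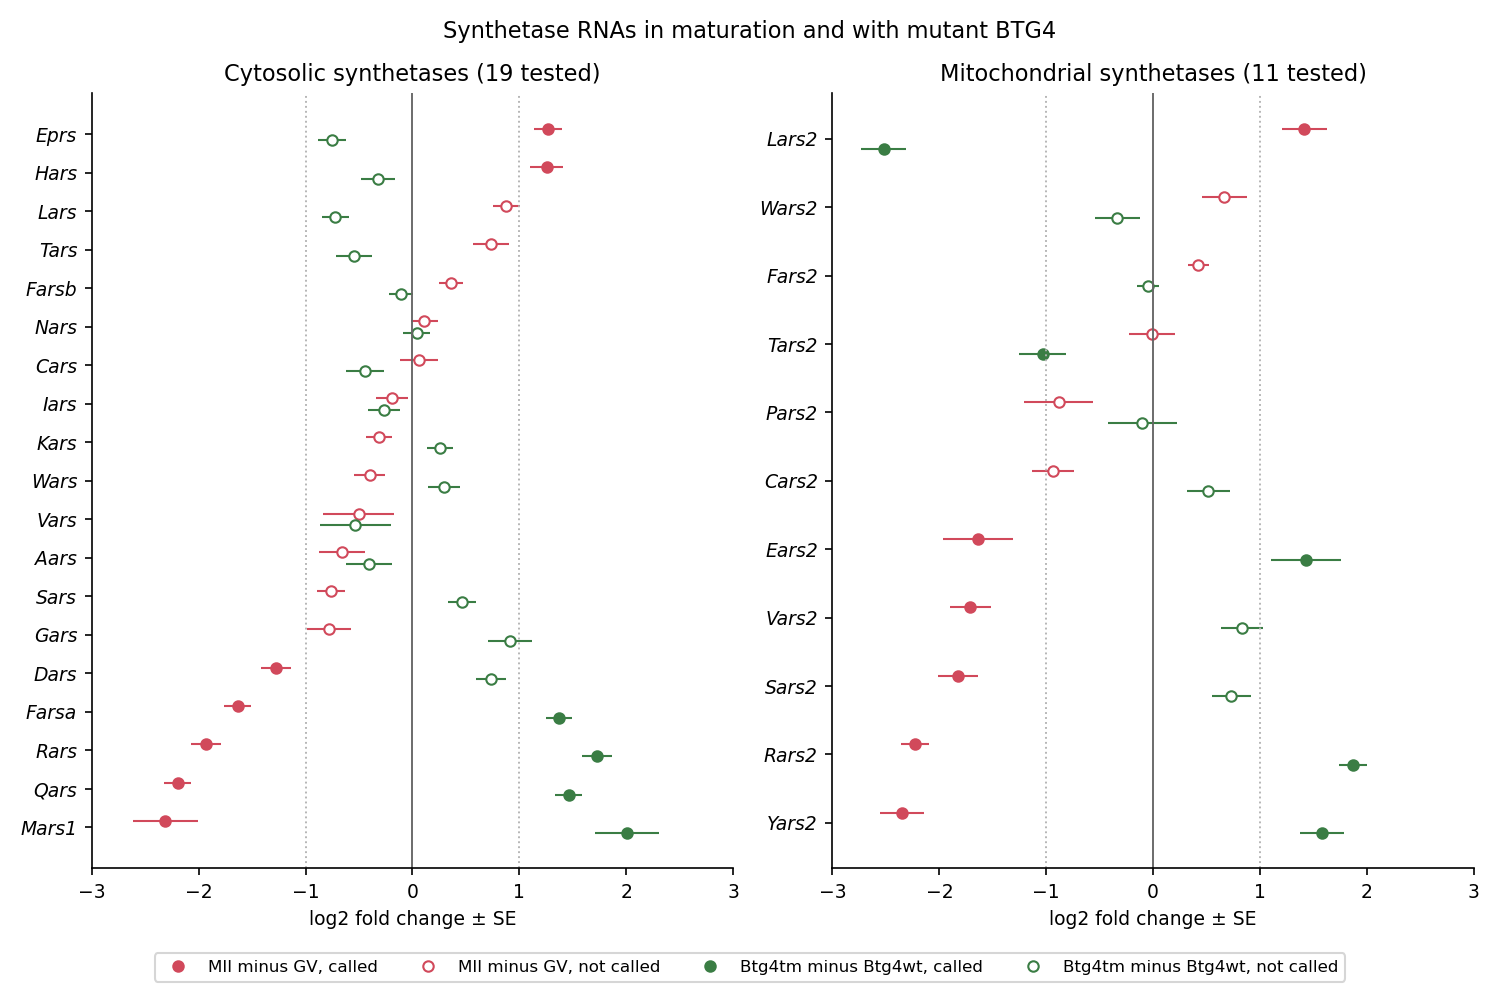
log2 fold changes with standard errors of the 30 synthetase RNAs tested, cytosolic on the left and mitochondrial on the right, for MII minus GV (red) and Btg4tm minus Btg4wt (green); filled points passed the test and dotted lines mark a log2 fold change of 1 in either direction. The 10 RNAs lower in MII oocytes all lie right of 0 in the green comparison, and *Lars2* has the lowest green point, at -2.52.

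Within the multisynthetase complex the RNAs moved in both directions relative to all genes. It holds 8 of the cytosolic enzymes, of which *Dars*, *Mars1*, *Qars* and *Rars* were lower in MII oocytes and *Eprs* was higher. *Iars* (isoleucine, -0.19), *Kars* (lysine, -0.32) and *Lars* (leucine, 0.88) did not pass both criteria. *Lars* passed the adjusted p (0.000463 by limma) but not the fold. Of the 11 cytosolic RNAs outside the complex, 1 was lower (*Farsa*) and 1 was higher (*Hars*). The shares were 50% lower and 12.5% higher in the complex and 9.09% each outside it. By active site, 7 of 16 class I RNAs (43.8%) and 3 of 14 class II RNAs (21.4%) were lower. In the same order 2 and 1 were higher (12.5% and 7.14%), with median log2 fold changes of -0.72 and -0.49. Over all genes tested 24.0% were lower and 12.6% were higher. These sets are small, and no test between them was made.

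The scaffold *Aimp2* went with the falling enzymes, at 62.5 and 71.1 TPM in GV and 5.27 and 5.32 TPM in MII libraries (log2 fold change -3.43). The other scaffolds, *Aimp1* (-0.85) and *Eef1e1* (-0.78), did not pass the fold criterion.

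The subunits of the cytosolic phenylalanine enzyme parted. *Farsa* and *Farsb* proteins assemble in equal numbers into 1 enzyme. In GV libraries the level of *Farsa* was 0.345 and 0.377 of that of *Farsb*. In MII libraries the ratio was 0.0799 and 0.0950, in Btg4wt libraries 0.0743 and 0.0671, and in Btg4tm libraries 0.212 and 0.197. Every library of *Farsb* lay between 157 and 263 TPM, with 223 and 208 TPM in MII, 234 and 263 in Btg4wt and 237 and 222 TPM in Btg4tm libraries, and its log2 fold change between GV and MII oocytes, 0.36, was below the fold criterion. Of the exonic bases of *Farsb*, 9.47% overlap *Sgpp2* on the opposite strand. Scaled to the mitochondrially encoded RNAs, the log2 fold change of *Farsb* was -1.85, against the shifted median of -1.69. The ratio itself was not tested.

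**Figure D3:**
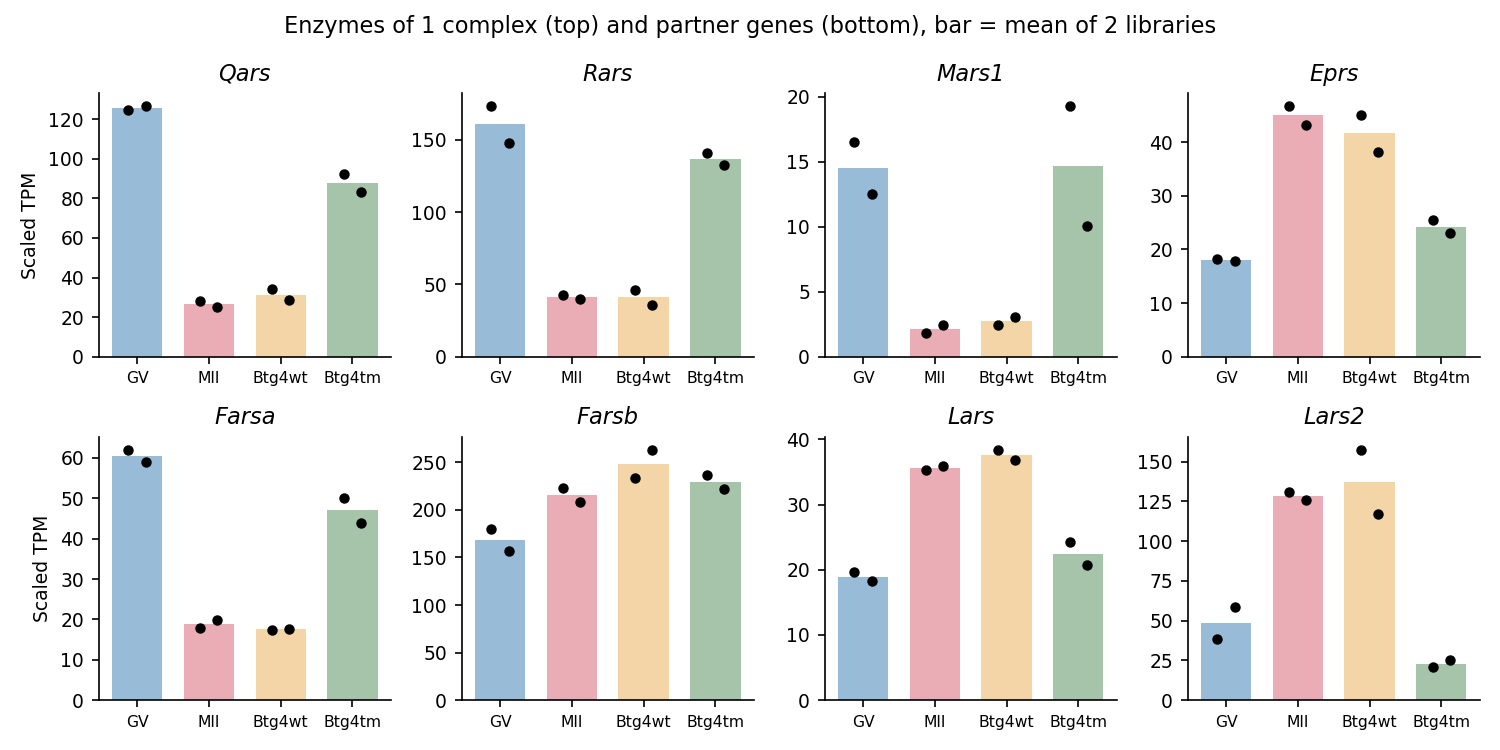
Scaled TPM of 8 synthetase RNAs, with a bar for the mean of 2 libraries, a point for each library and axes that start at 0. Of the complex members in the top row, *Qars*, *Rars* and *Mars1* are low in MII and Btg4wt libraries and *Eprs* is high there; below, *Farsa* is lower in MII than GV libraries and *Farsb* is not, and *Lars2* is lowest in Btg4tm libraries.

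The comparison of Btg4tm with Btg4wt oocytes asks how MII oocytes given the mutant adaptor differ from those given the wild-type one. Of the 30 synthetase RNAs, 7 were higher in the libraries labelled Btg4tm and 2 were lower. Over all genes tested 18.2% were higher and 7.95% were lower, and the synthetase shares were 23.3% and 6.67%. The median log2 fold change was 0.15 over the synthetase RNAs, 0.04 over the cytosolic and 0.52 over the mitochondrial ones, and 0.01 over all genes. The mitochondrial median depended on the filter. It was -0.03 with all 15 mitochondrial RNAs fitted and -0.08 over the 8 that passed a filter at 5 TPM. Another 8 synthetase RNAs passed the adjusted p alone, 5 of them higher and 3 lower. Whatever the fold, 17 of the 30 passed the adjusted p, as did 6919 of the 13952 genes tested.

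All 7 higher RNAs were among the 10 that were lower in MII than in GV oocytes, which is 70% of the 10 and 100% of the 7. Over all genes the overlap was 70.0% of the 3351 lower in MII and 92.5% of the 2534 higher in Btg4tm. The comparisons share no library. *Mars1* was at 2.43 and 3.07 TPM in Btg4wt and at 19.3 and 10.1 TPM in Btg4tm libraries, a log2 fold change of 2.01 (SE 0.30, limma adjusted p = 0.000804). *Rars* was at 45.9 and 35.97 TPM against 141 and 132 TPM, a log2 fold change of 1.72 (SE 0.14, limma adjusted p = 3.28e-05). For *Qars* the levels were 34.3 and 28.4 TPM against 92.3 and 83.2 TPM, with a log2 fold change of 1.46. The Btg4tm libraries lay above both Btg4wt libraries for each of these RNAs, and they lay further apart from each other for *Mars1* than for *Rars* and *Qars*.

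*Farsa* rose too, from 17.4 and 17.7 TPM to 50.2 and 43.9 TPM, a log2 fold change of 1.37. Among the mitochondrial RNAs, *Rars2* went from 10.3 and 9.14 TPM to 38.7 and 37.4 TPM, a log2 fold change of 1.87 (SE 0.13, limma adjusted p = 1.58e-05). *Yars2* was at 0.968 and 0.667 TPM against 4.61 and 4.24 TPM, a log2 fold change of 1.58. *Ears2* was at 0.646 and 0.216 TPM against 3.55 and 2.195 TPM, a log2 fold change of 1.43. No value of these RNAs overlapped between the groups, which does not set them apart. Only 7 of the 34 synthetase RNAs overlapped between Btg4wt and Btg4tm libraries. Here too the share of all genes was not counted, and the number is not read as a trait of the synthetases.

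The other 3 RNAs that were lower in MII oocytes had smaller differences that missed the fold criterion and passed the adjusted p. *Dars* was at 21.8 and 20.98 TPM in Btg4wt and 34.4 and 38.1 TPM in Btg4tm libraries (0.73). *Sars2* was at 5.10 and 4.33 against 8.08 and 8.87 TPM (0.73), and *Vars2* at 1.95 and 2.38 against 4.82 and 4.44 TPM (0.83). By the adjusted p alone all 10 declining RNAs were higher with the mutant than with wild-type BTG4. The same held for 83.8% of the 3351 genes lower in MII oocytes and for 26.3% of all genes tested.

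Both RNAs that were lower with the mutant encode mitochondrial enzymes. *Lars2* was at 158 and 117 TPM in Btg4wt and at 20.6 and 25.3 TPM in Btg4tm libraries, a log2 fold change of -2.52 (SE 0.21, limma adjusted p = 3.91e-05). Only 13 of the 13952 genes tested, *Lars2* included, had a log2 fold change this low. *Tars2*, the threonine enzyme, was at 6.86 and 6.88 TPM in Btg4wt and at 2.48 and 3.24 TPM in Btg4tm libraries, a log2 fold change of -1.03 (SE 0.22, limma adjusted p = 0.00449). It had been at 4.97 and 5.13 TPM in GV and at 6.01 and 4.15 TPM in MII libraries, which overlap. The log2 fold change of *Tars2* was -0.89 without the first Btg4tm library, -0.80 with the trend on exonic length removed and -0.15 with scaling to the mitochondrially encoded RNAs, and under each of these it no longer passed.

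*Eprs*, at 45.1 and 38.2 TPM in Btg4wt and 25.4 and 23.1 TPM in Btg4tm libraries, had a log2 fold change of -0.75 (limma adjusted p = 0.00185). For *Hars* the levels were 39.5 and 47.3 TPM against 36.8 and 32.1 TPM (-0.32, limma adjusted p = 0.124). *Fars2*, at 67.0 and 72.2 TPM against 67.2 and 67.3 TPM, had a log2 fold change of -0.05, after 65.6 and 68.4 TPM in MII libraries. None of these 3 RNAs passed both criteria.

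**Figure D4:**
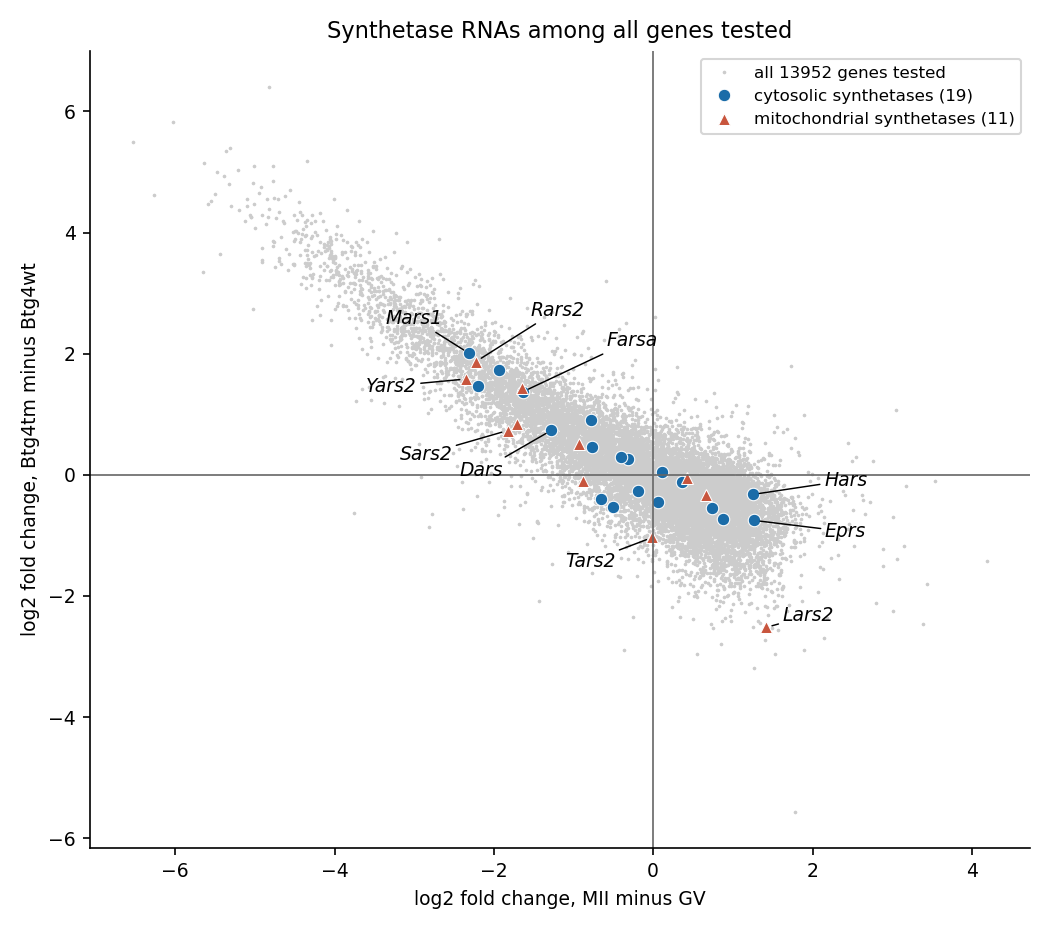
Each gene tested is a point, with its log2 fold change for MII minus GV on the horizontal axis and for Btg4tm minus Btg4wt on the vertical axis; blue circles are cytosolic and red triangles mitochondrial synthetases, and 10 are named. The synthetases lie within the cloud of all 13952 genes, with *Lars2* at its lower right edge.

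Across the 30 synthetase RNAs the log2 fold changes of these comparisons ran against each other, with a Pearson r of -0.88 and a Spearman rho of -0.88. Over all 13952 genes r was -0.88 and rho -0.81. These are descriptions across genes measured in the same libraries, and genes are not independent replicates.

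Btg4wt and uninjected MII oocytes were compared to see how injection of the wild-type cRNA moved these RNAs. By limma 0 of 30 synthetase RNAs passed, as did 0 of 13952 genes (0%). At an unadjusted p under 0.05 there were 4 synthetase RNAs and 1657 genes in all, and under every alternative setting run the adjusted count of synthetase RNAs was again 0. The synthetase log2 fold changes ran from -0.13 to 0.91, with *Vars* (0.91) and *Aars*, the alanine enzyme (0.89), at the top; 15.1% of the exonic bases of *Aars* overlap other genes, *Exosc6* foremost.

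Btg4tm oocytes were set against GV oocytes to see how far their levels lay from those before maturation. The values share the libraries of the comparisons above. Of the 30 RNAs, 1 was lower and 0 were higher, where 1.02% of all genes were lower and 1.02% higher. The RNA was that of *Lars2*, at 20.6 and 25.3 TPM against 38.6 and 58.3 TPM in GV libraries, a log2 fold change of -1.02 (SE 0.21, limma adjusted p = 0.0223). It stood at the edge of both criteria. The adjusted p was 0.125 without the second GV library, 0.0977 without the first Btg4tm library, 0.0587 with the 4 libraries of the comparison alone and 0.0551 without the variance trend. The 10 RNAs that fell in MII oocytes had log2 fold changes of -0.67 (*Vars2*) to -0.04 (*Mars1*) against GV oocytes, all below 0, and of these *Qars* alone passed the adjusted p (-0.51, limma adjusted p = 0.0402).

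*Lars2* was thus highest in MII and Btg4wt libraries and lowest in Btg4tm libraries. It held 57.3% and 56.0% of the summed mitochondrial synthetase TPM in the MII libraries, 60.1% and 52.4% in Btg4wt, 20.6% and 28.7% in GV, and 12.9% and 15.5% in Btg4tm libraries. The sum over all 15 mitochondrial genes was 187 and 203 TPM in GV and 228 and 225 TPM in MII libraries. Without *Lars2* it was 148 and 145 TPM in GV and 97.3 and 98.9 TPM in MII libraries, so the sum went up with *Lars2* and down without it. In Btg4wt libraries the sum without *Lars2* was 105 and 106 TPM and in Btg4tm libraries 140.0 and 138 TPM.

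The cytosolic sum was 1075 and 1015 TPM in GV, 819 and 804 TPM in MII, 879 and 869 TPM in Btg4wt, and 1088 and 994 TPM in Btg4tm libraries. Thus GV and Btg4tm libraries overlapped in this sum and lay above the MII and Btg4wt libraries.

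**Figure D5:**
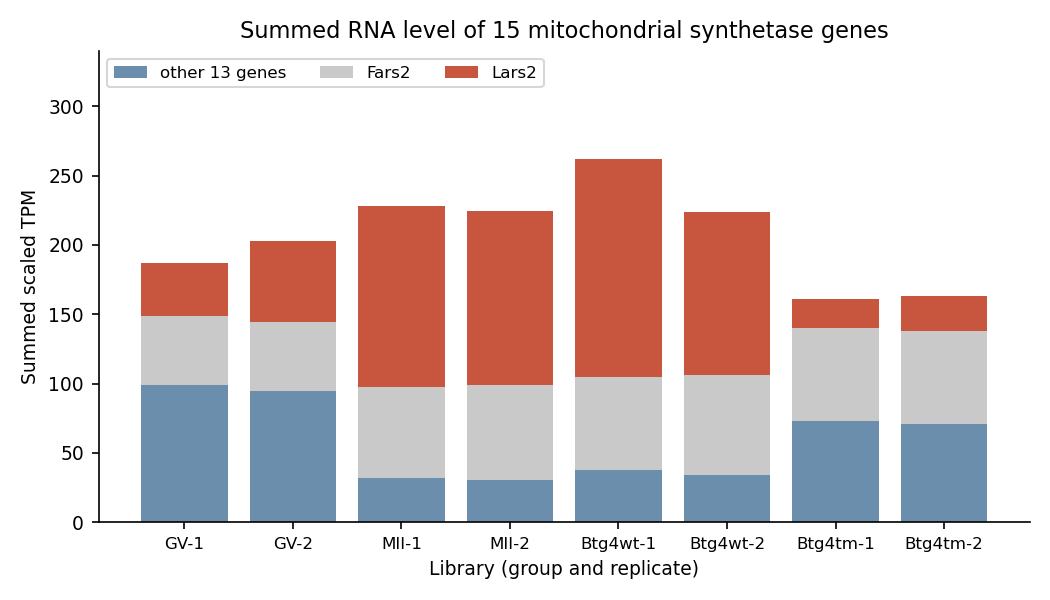
Summed scaled TPM of the 15 mitochondrial synthetase RNAs in each library, split into *Lars2*, *Fars2* and the other 13 genes. The red part for *Lars2* is largest in the MII and Btg4wt libraries, where the other 13 genes sum to 30.5 to 37.6 TPM against 94.6 to 99.3 TPM in GV libraries.

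Other RNAs moved with *Lars2*, and these were looked up after its values were seen. From GV to MII oocytes all 19 mitochondrially encoded RNAs tested rose (median log2 fold change 2.52), and 9 of the 19 were lower with Btg4tm than with Btg4wt (median -0.98). Against GV oocytes 7 of the 19 were higher in Btg4tm oocytes (median 1.06), where *Lars2* was lower. The mitochondrial ribosomal RNAs, whose tails are short, came closer to *Lars2*. *mt-Rnr1*, the small one, was at 437 and 392 TPM in GV libraries, 1396 and 1175 TPM in MII libraries, 1271 and 1402 TPM in Btg4wt libraries and 283 and 483 TPM in Btg4tm libraries. *mt-Rnr2*, the large one, was at 2188 and 2115 TPM, 5920 and 5073 TPM, 4947 and 5438 TPM, and 1582 and 2505 TPM in the same order. Both were called higher in MII than GV oocytes and lower with Btg4tm than Btg4wt, with log2 fold changes of -1.85 and -1.38 in the latter comparison, and neither was called between Btg4tm and GV oocytes. None of the 9 annotated *Lars2* transcripts shared a run of 20 bases with either ribosomal RNA.

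*Gm15564*, an uncharacterised gene, shares an identical run of 52 bases with 2 of the 9 *Lars2* transcripts, on the same strand. It was at 29.4 and 31.2 TPM in GV libraries, 138 and 95.8 TPM in MII libraries, 103 and 90.6 TPM in Btg4wt libraries and 6.52 and 22.003 TPM in Btg4tm libraries. As for *Lars2*, its MII and Btg4wt libraries lay above its GV libraries and its Btg4tm libraries lay lowest, with log2 fold changes of 1.89 from GV to MII and -2.89 from Btg4wt to Btg4tm. How many of the *Lars2* reads lay in the shared run is not known from a table of TPM, and the part of such reads in the *Lars2* values was not tested.

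*Lars*, the cytosolic leucine enzyme, named here after its values were seen, was at 19.6 and 18.3 TPM in GV and at 35.3 and 35.8 TPM in MII libraries, and at 38.4 and 36.8 TPM in Btg4wt and 24.2 and 20.7 TPM in Btg4tm libraries (log2 fold change -0.72 between the last pair of groups). Its ratio to *Lars2* was between 0.244 and 0.508 in the first 3 groups and 1.17 and 0.820 in Btg4tm libraries.

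Gene length went with the fold changes, in the synthetases and beyond. Between exonic length and the MII minus GV log2 fold change, the Spearman rho was 0.37 over the 30 synthetases (0.15 for the 19 cytosolic and 0.73 for the 11 mitochondrial RNAs) and 0.29 over 13794 genes with a length. For Btg4tm minus Btg4wt it was -0.54 over the 30 synthetases and -0.36 over all genes. The 10 RNAs lower in MII oocytes had a median exonic length of 3890.5 bases, the 17 not called 5368 bases and the 3 higher ones 11089 bases. The 3 higher ones were unlike in length, with 2447 bases for *Hars*, 11089 for *Lars2* and 18102 for *Eprs*. The part of length in the results was not tested beyond removing its trend, after which 12 of 30 synthetase RNAs were lower and 1 was higher in MII oocytes. Of the 13794 genes in that fit, 2536 were lower and 2563 were higher.

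Other genes of tRNA metabolism were taken from lists that had been written down with earlier results of these data known. Of 19 tested genes for tRNA end processing, splicing and export, 11 were lower in MII oocytes and 0 were higher (57.9% and 0%, against 24.0% and 12.6% of all genes; median log2 fold change -1.92). Between Btg4wt and Btg4tm 11 rose and 1 fell (57.9% and 5.26%, against 18.2% and 7.95% of all genes; median 1.25). The largest changes were those of *Pop5*, a subunit of RNase P (-4.71 and then 4.55), *Rtcb*, the tRNA ligase (-4.30 and 3.13), *Pop4* (-3.19 and 2.73) and *Rpp21* (-2.92 and 2.39), further RNase P subunits. Here the first value is MII minus GV and the second Btg4tm minus Btg4wt, both on the log2 scale.

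Of 4 genes that help to charge or formylate mitochondrial tRNAs, *Mtfmt*, the formyltransferase (-1.36), and *Qrsl1* (-1.25) were lower in MII oocytes and *Gatb* (1.23) was higher; *Qrsl1* and *Gatb* encode subunits of the mitochondrial glutamine amidotransferase. None of the 4 passed both criteria between Btg4tm and Btg4wt. *Mtfmt* (0.95, limma adjusted p = 0.00208) and *Qrsl1* (0.98, limma adjusted p = 0.0284) were higher with Btg4tm by the adjusted p and just missed the fold. *Qrsl1* reached 1 TPM only in GV and Btg4tm libraries, so it entered the test through the groups where it was high. Its log2 fold change was 0.58 without the first and 1.37 without the second Btg4tm library. It was 1.25 without the first and 0.70 without the second Btg4wt library. Among 6 further synthetase-related genes tested, *Pstk*, a kinase of the selenocysteine pathway, was lower in MII (-2.67) and higher in Btg4tm oocytes (1.86). *Aarsd1*, an alanyl-tRNA editing protein, was higher in MII (1.01) and lower in Btg4tm oocytes (-1.37), but the first call was lost without the first GV library (0.89) or the first MII library (0.97) and the second without the second Btg4wt library (-0.95). Of 4 tested genes that clear mischarged or peptidyl tRNA, *Ptrh2*, a peptidyl-tRNA hydrolase, was lower in MII (-2.65), and *Ptrh2* (1.85) and *Dtd1*, a D-aminoacyl-tRNA deacylase (1.08), were higher in Btg4tm oocytes; *Dtd1* no longer passed without the first Btg4wt library (0.85).

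ATF4 is a transcription factor that is known to induce synthetase genes under amino acid stress. Of 16 tested genes of its programme, 6 were lower and 1 was higher in MII oocytes (37.5% and 6.25%, against 24.0% and 12.6% of all genes; median log2 fold change -0.31). Between Btg4wt and Btg4tm 4 rose and 3 fell (25% and 18.8%, against 18.2% and 7.95% of all genes; median 0.09). The largest declines were in *Ddit3* (-3.68), a stress transcription factor, *Phgdh* (-3.54), the first enzyme of serine synthesis, *Cebpb* (-2.76) and *Asns* (-2.49), the asparagine synthetase that makes the free amino acid. *Cebpb* differed widely between GV libraries (46.6 and 9.50 TPM), and its log2 fold change was -1.67 without the first GV library and -1.97 without the first MII library, neither of which passed. *Ddit3* and *Phgdh* were higher in Btg4tm oocytes by 3.64 and 3.26.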

How the data were processed

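TPM per gene symbol were deposited by the authors for 8 Smart-seq2 libraries of polyadenylated RNA. Per their methods and the submitters' processing notes, the authors trimmed reads with Trim Galore 0.6.10, aligned them to GRCm38 with HISAT2 2.2.0 and the GENCODE vM25 annotation, and counted them on exons with featureCounts 2.0.6 without strand, at a mapping quality of at least 10. The gene lengths behind the TPM are not given in the sources used here. The depth is unknown, TPM do not hold it, and no counting interval is given. The labels give 3 samples per group, and 2 per group were analysed here. Nothing says that replicates came from separate mice, so p-values measure only the spread between these libraries, which may be technical.

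Median-of-ratios scaling was applied across the libraries, and log2(TPM + 1) was modelled. The fit (limma 3.58.1 in R 4.3.3, eBayes with trend) used all 8 libraries and the 13952 genes with at least 1 scaled TPM in at least 2 libraries. RNAs were called where the p-value, adjusted by Benjamini and Hochberg over all genes tested, was under 0.05 and the absolute log2 fold change over 1. A fold change is on the log2(TPM + 1) scale and understates changes of low genes. SE is the standard error of the fit. The procedure was tested on simulated data. Lengths, 3′ ends and overlaps came from GENCODE M21 on GRCm38, matched by symbol for 15610 genes and by an older symbol for 168, *Mars1* among them. Protein sequences were not used here, and no sequence of chromosome 18 is shown.

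Every synthetase may be named. Values by library are given per class for the 5 largest called changes from GV to MII, the 3 highest and the lowest GV means, the 3 largest called rises in Btg4tm, and every RNA called against the majority or between Btg4tm and GV. Up to 4 genes per further list are named by the largest called change. The members, lists and tests were chosen with earlier results of these data known. Alternatives were TPM as deposited, quantile and mitochondrial scaling, another pseudocount, other filters and thresholds, fits of 4 libraries, without trend, with a replicate block or with the length trend removed, and leaving out each library.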

Additional observations from a re-analysis of the deposited data

How the results depend on the processing

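With 2 libraries per group and no counts, the precision of every value rests on the spread pooled over the 4 groups. RNAs near 1 TPM cannot be ranked. TPM are shares, so the direction of a change holds against the bulk of the library. Scaled to the mitochondrially encoded RNAs, which themselves rose in MII oocytes, 28 synthetase RNAs fell and 0 rose from GV to MII oocytes, 17 rose and 1 fell from Btg4wt to Btg4tm oocytes, and 7 differed between Btg4tm and GV oocytes. The median of all genes was then -1.69, 0.84 and -0.63 in these comparisons. This fit held 32 synthetase RNAs and 14543 genes, of which 11756 fell and 7 rose from GV to MII oocytes. From Btg4wt to Btg4tm oocytes 6106 genes rose and 68 fell. Against GV oocytes 3005 genes were lower and 39 higher in Btg4tm oocytes. Of the changes that passed the test in either fit, that from GV to MII reversed under this scaling for *Cars* (-2.02), *Eprs* (-0.88), *Farsb* (-1.85), *Fars2* (-1.76), *Hars* (-0.89), *Lars* (-1.26), *Lars2* (-0.77), *Nars* (-2.08), *Tars* (-1.40) and *Wars2* (-1.11), and that from Btg4wt to Btg4tm for *Fars2* (1.02). From Btg4wt to Btg4tm 10 further RNAs that passed in neither fit changed sign under it, to between 0.30 and 0.97. Quantile normalization gave 10 lower and 5 higher in MII oocytes, and TPM as deposited 12 and 3. Over all genes these settings gave 2711 lower and 3103 higher of 13952, and 3699 and 1145 of 13968.

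Without the minimum fold change the counts were 16 lower in MII, 12 higher with Btg4tm than Btg4wt, and 5 different between Btg4tm and GV oocytes. Of all 13952 genes, 4571 were then lower in MII and 3668 higher with Btg4tm than Btg4wt. Between Btg4tm and GV oocytes 523 genes were lower and 1070 higher. The single call between Btg4tm and GV oocytes, *Lars2*, was lost (0) with only the 4 libraries of the comparison, with eBayes without trend, at an adjusted p under 0.01 and with the trend on exonic length removed; the cause was not tested. Leaving out 1 library, whose partner is then assumed to vary like the other groups, gave 10 to 11 lower in MII, 7 to 7 higher with Btg4tm than Btg4wt, 0 to 0 between Btg4wt and MII and 0 to 1 between Btg4tm and GV oocytes.

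Libraries with the same replicate number did not deviate together (correlations of -0.054 to 0.056 over 13952 genes), so the numbers do not pair them. A fit with the replicate block gave 10, 7, 0 and 1 in the order of the comparisons above, and changed no call of a synthetase RNA. Of 1090 values of single RNAs under the alternatives, 1039 kept their side of the threshold (1010 of them with the same sign and 29 with the other), 30 gained a call, 10 lost one and 11 reversed.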
